A study of Homo sapiens with 24 samples.

Results

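The genes described here are 10 members of the Notch pathway: the receptor gene NOTCH1, the 4 ligand genes DLL1, DLL3, JAG1 and JAG2, and the 5 target genes HES1, HES5, HEY1, HEYL and NRARP. They were chosen by name and looked up in both count tables of the series, the NPC table with 10221 genes and the organoid table with 61544 genes, and all 10 were listed in each. H9, an established line of human embryonic stem cells, was grown into neural progenitor cells (NPCs) or into cerebral organoids, neural aggregates collected at day 30. While still stem cells, all cultures were infected with a lentivirus carrying a short hairpin RNA and selected with puromycin at 1 µg/ml. The groups were NC (a scrambled hairpin, genotype given as WT), sh1 and sh4 (the hairpins called 1 and 4, both against the histone demethylase gene KDM2A, genotype given as KDM2A knockdown). Each group had 5 NPC libraries and 3 organoid libraries. The treatment label calls the agents siRNA-1 and siRNA-4, and the design text says that siRNA designs were turned into hairpins. All groups share the parent line, infection and selection, and the labels name neither clones nor the culture behind each library. The p-values therefore reflect nothing but the spread among these libraries, and that spread may be technical.

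Notch is a receptor that is cut when a ligand on a neighbouring cell pulls on it. The freed intracellular part enters the nucleus, joins the DNA-binding protein RBPJ and switches on HES and HEY genes, which encode repressors of proneural genes. In the developing brain this keeps radial glia, the dividing progenitors, from becoming neurons, while newly forming neurons express DLL1 and DLL3. In bulk RNA, fewer cells of a type and less RNA per cell cannot be told apart.

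The stretches around the transcription starts of HES1, HES5, HEYL and NRARP are shown because these targets moved in different directions in the same libraries. Each is the RefSeq promoter on GRCh38.p14, 250 bases before and 50 bases from the annotated start, written 5′ to 3′ along the gene. Capitals mark the 6-letter RBPJ core TGGGAA or its reverse complement TTCCCA.
HES1, chr3:194135898-194136197, plus strand: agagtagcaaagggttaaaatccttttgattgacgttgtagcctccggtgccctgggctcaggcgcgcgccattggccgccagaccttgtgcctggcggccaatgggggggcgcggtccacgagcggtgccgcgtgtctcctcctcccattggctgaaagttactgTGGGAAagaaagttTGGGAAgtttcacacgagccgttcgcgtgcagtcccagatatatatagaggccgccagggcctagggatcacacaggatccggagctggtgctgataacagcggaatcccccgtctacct
HES5, chr1:2530214-2530513, minus strand: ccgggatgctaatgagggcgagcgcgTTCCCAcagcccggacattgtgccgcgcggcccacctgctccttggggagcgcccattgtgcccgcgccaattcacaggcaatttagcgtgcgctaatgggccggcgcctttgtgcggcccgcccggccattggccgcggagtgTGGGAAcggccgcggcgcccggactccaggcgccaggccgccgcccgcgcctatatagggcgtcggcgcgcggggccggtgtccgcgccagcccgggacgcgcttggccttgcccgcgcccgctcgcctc
HEYL, chr1:39639594-39639893, minus strand: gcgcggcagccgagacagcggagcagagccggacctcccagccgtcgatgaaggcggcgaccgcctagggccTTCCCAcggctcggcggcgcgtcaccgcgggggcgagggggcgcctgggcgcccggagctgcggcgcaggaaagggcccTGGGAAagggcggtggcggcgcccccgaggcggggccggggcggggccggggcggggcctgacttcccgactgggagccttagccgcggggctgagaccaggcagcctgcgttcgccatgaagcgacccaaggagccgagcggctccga
NRARP, chr9:137302222-137302521, minus strand: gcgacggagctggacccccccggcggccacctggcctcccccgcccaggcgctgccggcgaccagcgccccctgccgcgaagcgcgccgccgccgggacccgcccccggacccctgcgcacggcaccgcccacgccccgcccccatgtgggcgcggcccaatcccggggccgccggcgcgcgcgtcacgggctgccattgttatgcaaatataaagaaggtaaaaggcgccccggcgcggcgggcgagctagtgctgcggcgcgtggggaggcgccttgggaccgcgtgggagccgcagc

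Promoters of 7 members were in the RefSeq table, those of NOTCH1, JAG1, JAG2, HES1, HES5, HEYL and NRARP. The core was found in 3 of these 7, in HES1, HES5 and HEYL with 2 matches each, and in 24% of all 35116 promoters of the table. Counted from the annotated start, the HES1 matches begin at -84 and -70, both in the direction of the gene, and the HES5 matches at -224 on the other strand and at -80. The HEYL matches begin at -178 on the other strand and at -99. The N box CACNAG, to which HES repressors bind, was searched on both strands too and does not overlap the RBPJ core. It was found in HES1 (4 matches), NOTCH1 (2) and NRARP (1), and in 38% of all promoters. A match is a description of the letters and no evidence of binding, and its absence from this window says nothing of RBPJ or HES proteins elsewhere.

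Levels are given in CPM, counts relative to the library total scaled by the TMM factors of edgeR. A gene is said to have risen or fallen where edgeR's quasi-likelihood test gave an adjusted p (Benjamini-Hochberg, over all genes tested in the table) under 0.05 and the log2 fold change was 1 or more in either direction, which are the cutoffs named in the design text. NPC libraries held 12.7 to 20.2 M counts and organoid libraries 15.9 to 18.9 M. KDM2A fell with sh1 in the NPCs from 186 ± 15.3 CPM (SD, n = 5) to 92.1 ± 4.15 (n = 5), with a log2 fold change of -1.02 (adjusted p = 5.12e-12, edgeR). With sh4 it was 95.1 ± 4.21 CPM (n = 5), a log2 fold change of -0.97 (adjusted p = 7.36e-12). In the organoids the log2 fold changes of KDM2A were 0.14 for the libraries labelled sh1 (95% interval -0.02 to 0.29) and 0.01 for those labelled sh4 (-0.14 to 0.16). The organoid labels sh1 and sh4 are therefore used below as labels, without a measured loss of the target.

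The NPC table lists a selected set of genes: 99.3% of its 9860 tested genes passed an adjusted p of 0.05 for sh1 against NC, and the highest unadjusted p was 0.148. There, passing on the p-value alone carries little information, NPC levels are relative to the counts of the listed genes, and sh4 shares the NC libraries with sh1. Of the 12 radial glia markers 10 are listed in the NPC table, and NES, an intermediate filament of neural progenitors, stood at 2150 ± 66.8 CPM and PAX6 at 17.0 ± 1.53 CPM with NC (SD, n = 5). Transcripts of the pluripotency factor POU5F1 were also present in NC, at 356 ± 79.8 CPM in the NPCs and 231 ± 67.0 CPM (n = 3) in the organoids.

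The first question was how the pathway stood in the day 30 organoids. In the libraries labelled sh1 and sh4 the ligand DLL1 and the targets HES5 and NRARP were far below NC, NOTCH1, DLL3 and JAG2 were lower as well, and the targets HEY1 and HEYL were above NC. HES1, the other classical target, reached the fold threshold with neither label. With sh1, 2 members rose and 4 fell of 10 tested, against 12.1% of all 19704 tested genes called higher and 7.92% called lower. With sh4, 1 member rose and 6 fell, against 20% higher and 15.5% lower. The same direction with both labels was called for 5 members: HEYL rose, and DLL1, DLL3, HES5 and NRARP fell, with 10.2% and 6.18% of all genes called higher and lower with both. Median log2 fold changes of the 10 members were -0.87 (sh1) and -1.36 (sh4), and those of all tested genes 0.02 and -0.01.

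NOTCH1, the receptor, lies on chromosome 9 at 136494433 to 136545786 on the minus strand (GENCODE release 29, GRCh38). Its level was 280, 272 and 262 CPM in NC 1 to 3, 150, 145 and 164 CPM with sh1, and 87.9, 99.4 and 96.9 CPM with sh4. The 3 groups did not overlap, with sh4 lowest and sh1 between. NOTCH1 fell with sh4 by 1.52 on the log2 scale (SE 0.072, adjusted p = 3.88e-07, edgeR). The sh1 change of -0.83 (SE 0.071, adjusted p = 2.14e-05, edgeR) stayed under the fold threshold.

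DLL1 encodes the Delta ligand that forming neurons present to their neighbours, and lies on chromosome 6 at 170282206 to 170306565 on the minus strand. It stood at 89.7, 86.7 and 91.0 CPM with NC, at 16.5, 17.2 and 33.2 CPM with sh1 and at 6.49, 13.7 and 8.81 CPM with sh4. NC was tight and far above, and sh1 replicate 3 was the highest of the 6 other libraries. DLL1 fell with sh1 (log2 fold change -2.0, SE 0.29) and with sh4 (-3.20, SE 0.312), with adjusted p = 0.00046 and 1.42e-05 in edgeR. Its gene overlaps FAM120B on the opposite strand in the annotation, and 2 of its 9 organoid values and 10 of its 15 NPC values were not whole numbers, so reads shared with a neighbour cannot be told apart. The lincRNA AL078605.1 overlaps DLL1 on the same strand. JAG2 overlaps the processed transcript AL512356.1 on the same strand, and 1 of its organoid values and 0 of its NPC values were not whole numbers. NOTCH1, JAG1, HES5 and HEYL also have an annotated RNA on the opposite strand, and the strand setting of the counting is unknown here.

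DLL3 (chromosome 19, 39498895 to 39508481, plus strand), a Delta family member that acts inside the cell and does not activate Notch from a neighbour, was 27.2, 26.0 and 24.7 CPM with NC and 11.5, 11.4 and 11.2 CPM with sh1. With sh4 it was 1.10 and 1.62 CPM in replicates 1 and 3 and 6.94 CPM in replicate 2, so every library of these labels lay below NC but the sh4 libraries differed widely. DLL3 fell with sh4 (log2 fold change -3.0, SE 0.492, adjusted p = 0.000414, edgeR). Without sh4 replicate 2 the value was -4.24. The sh1 call (-1.19, SE 0.441, adjusted p = 0.0489, edgeR) was at the threshold and was lost in 9 of 14 other fits, among them each fit without 1 of the NC or sh1 libraries and DESeq2 (adjusted p = 0.114), with an adjusted p from 1.01e-05 to 0.121 over the 14.

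The Jagged ligands JAG1 and JAG2 went apart. JAG1 was 56.1, 60.5 and 57.3 CPM with NC, 106, 112 and 91.0 CPM with sh1 and 48.1, 60.1 and 60.3 CPM with sh4. It was higher in each sh1 library than in any NC or sh4 library, while NC and sh4 overlapped. The log2 fold changes were 0.83 (SE 0.104, adjusted p = 0.000202) with sh1, under the fold threshold, and -0.04 (95% interval -0.28 to 0.19) with sh4 in edgeR. JAG2 (chromosome 14, 105140981 to 105168824, minus strand) was 29, 29 and 29.1 CPM with NC, 17.3, 14.0 and 15 CPM with sh1 and 11.9, 13.1 and 13.1 CPM with sh4. JAG2 fell with sh4 (-1.19, SE 0.102, adjusted p = 6.63e-06, edgeR), and its sh1 value of -0.91 (SE 0.101, adjusted p = 9.54e-05, edgeR) was just under the threshold.

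HES5, the repressor gene most closely tied to Notch activity in neural progenitors, lies on chromosome 1 at 2528745 to 2530245 on the minus strand. It showed the widest range of the members. Its level was 36.2, 29.4 and 45.5 CPM with NC (655, 551 and 776 counts), 4.11, 4.34 and 5.21 CPM with sh1, and 0.325, 1.24 and 0.599 CPM with sh4 (5, 21 and 10 counts). The mean with NC was 8.13 times that with sh1 and 51.4 times that with sh4. HES5 fell with sh1 (log2 fold change -3.02, SE 0.265, adjusted p = 2.4e-05) and with sh4 (-5.65, SE 0.332, adjusted p = 8.8e-07) in edgeR. Without sh4 replicate 2, the highest of its group, the sh4 value was -6.28.

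HES1 (chromosome 3, 194136145 to 194138732, plus strand) did not follow HES5. It was 21.4, 19.9 and 24.7 CPM with NC, 29.5, 27.2 and 32.4 CPM with sh1 and 24.2, 25.1 and 24.3 CPM with sh4. All sh1 libraries were above NC, and the sh4 libraries overlapped with NC. The log2 fold changes were 0.43 (SE 0.102, adjusted p = 0.00659) with sh1 and 0.16 (95% interval -0.07 to 0.39, adjusted p = 0.196) with sh4 in edgeR, and with library size alone the sh4 value was -0.12.

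HEY1, a Notch target that neural, vascular and other cells use, was 25.4, 28.4 and 28.8 CPM with NC and 69.7, 80.9 and 61.1 CPM with sh1. With sh4 it was 30.1, 44.6 and 44.7 CPM. No group overlapped another, NC being lowest and sh1 highest. HEY1 rose with sh1 (log2 fold change 1.36, SE 0.158, adjusted p = 0.000129, edgeR), and its sh4 value of 0.53 (SE 0.158, adjusted p = 0.0129, edgeR) was under the fold threshold.

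HEYL (chromosome 1, 39624153 to 39639945, minus strand), a related repressor gene known from vascular smooth muscle, was 5.41, 8.05 and 7.10 CPM with NC, 16.9, 16.2 and 16.6 CPM with sh1 and 14.2, 23.8 and 10.1 CPM with sh4. Both other groups lay above NC, and the sh4 libraries spread around the sh1 level. HEYL rose with sh1 (1.27, SE 0.28, adjusted p = 0.00464) and with sh4 (1.23, SE 0.281, adjusted p = 0.00321) in edgeR. The sh4 call was lost without sh4 replicate 2 (0.83) and with library size alone (0.96).

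NRARP, a small ankyrin repeat protein that Notch induces and that limits Notch signalling in turn, lies on chromosome 9 at 137300482 to 137302251 on the minus strand. It was 39.5, 37.1 and 44.3 CPM with NC, 12.3, 13.6 and 15.7 CPM with sh1 and 7.6, 10.8 and 9.11 CPM with sh4. The 3 groups did not overlap, in the same order as for DLL1 and HES5. NRARP fell with sh1 (log2 fold change -1.54, SE 0.142, adjusted p = 3.25e-05) and with sh4 (-2.13, SE 0.147, adjusted p = 1.96e-06) in edgeR.

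**Figure D1:**
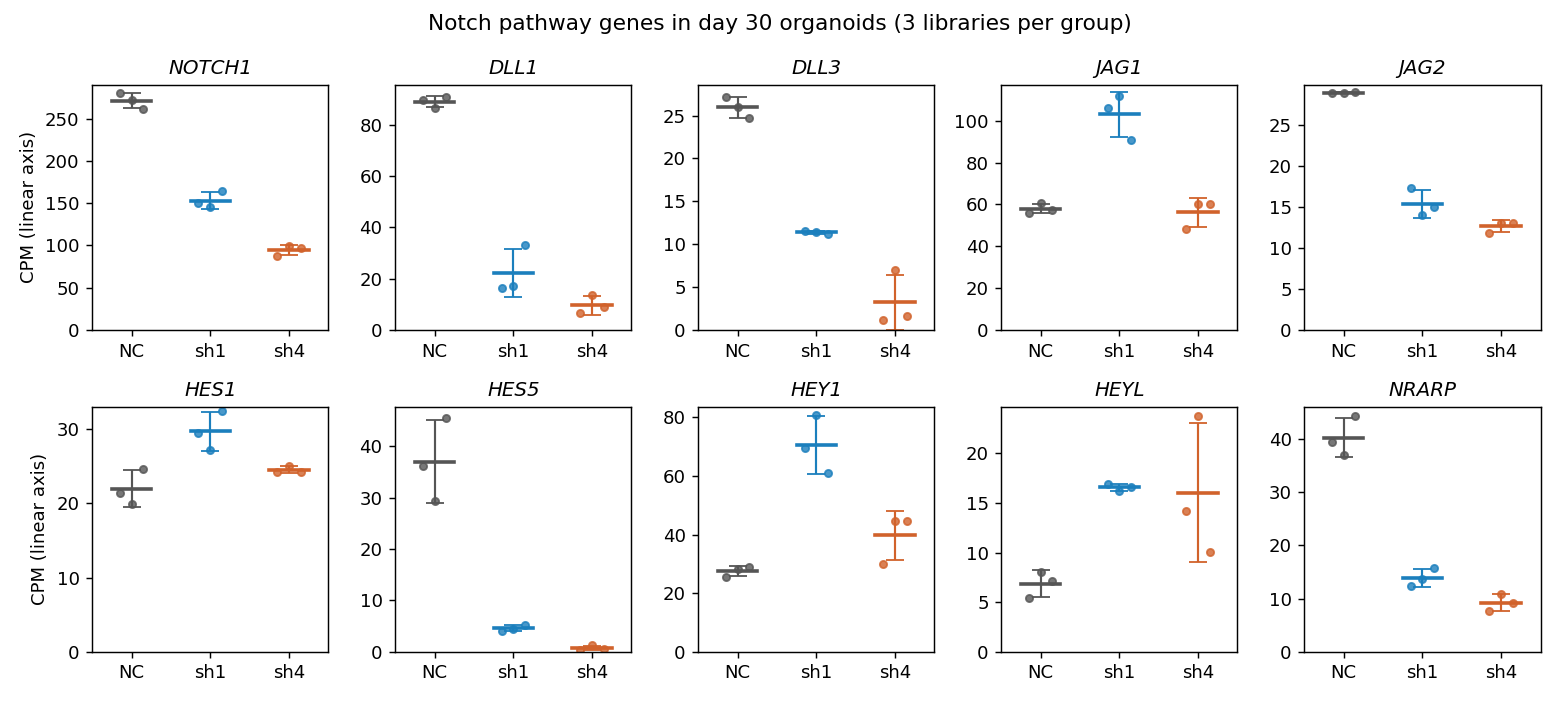
Level in CPM (linear axes from 0, a scale per gene) of the 10 genes in each day 30 organoid library labelled NC, sh1 or sh4. Points are libraries (n = 3), the horizontal line is the mean and the bar its SD (the DLL3 bar with sh4 is cut at 0). DLL1, HES5 and NRARP step down from NC to sh1 to sh4, and HEY1 and HEYL are above NC.

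The labels sh1 and sh4 also differed from each other in the organoids. DLL1 (log2 fold change of sh1 over sh4 1.2), DLL3 (1.80) and HES5 (2.63) were higher with sh1, with adjusted p = 0.00961, 0.0129 and 0.000377 in edgeR, so 3 of 10 members were called higher and 0 lower. Of all tested genes 7.83% were called higher and 11.2% lower in this comparison. The DLL1 call was lost without sh1 replicate 3 (0.76) and without sh4 replicate 1 (0.99), and without sh4 replicate 2 the DLL3 value was 3.05 and the HES5 value 3.27. JAG1 (0.87) and HEY1 (0.82) stayed under the fold threshold and passed it with library size alone (1.10 and 1.04). HEYL did not differ detectably (0.05, 95% interval -0.56 to 0.65).

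Markers of cell types moved with the same organoid labels. Of all tested genes 10.2% were called higher and 6.18% lower with both labels. With sh1 the shares were 12.1% higher and 7.92% lower, and with sh4 they were larger, 20% and 15.5%. Of 12 radial glia markers 5 fell with both labels and 0 rose with both, while PROM1 rose with sh4 (1.2, adjusted p = 0.000293, edgeR). Their summed level went from 3870 to 4420 CPM with NC to 3040 to 3180 with sh1 and 1550 to 1990 with sh4. PAX6, a transcription factor of cortical radial glia, had log2 fold changes of -3.56 and -4.41, and SOX2 of -1.09 and -3.17. Of 12 neuron markers 2 fell with both labels, and all 12 fell with sh4. With sh1 the neurofilament gene NEFM rose (1.81, adjusted p = 0.00992, edgeR), and NEFL stood at 531 ± 61.4 CPM against 240 ± 32.2 with NC (SD, n = 3, adjusted p = 0.0571). The summed level of the list went from 3550 to 3970 CPM with NC to 2560 to 3120 with sh1 and 292 to 1190 with sh4. The part of these shifts in the changes of DLL1, DLL3, HES5 and NRARP was not tested.

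Mesenchyme and mural cell markers rose with both labels for 8 of 12 genes and fell for 0, from a summed 3310 to 4760 CPM with NC to 22300 to 25300 with sh1 and 41900 to 51400 with sh4. RGS5, a pericyte marker in that list, was not among them (61.1 ± 18.2 CPM with NC, 55.6 ± 3.24 with sh1, 46.5 ± 3.71 with sh4, SD, n = 3). Of 10 endothelium markers 4 rose with both and 0 fell with both, while VWF fell with sh4 (-1.18, adjusted p = 0.00274, edgeR). Their summed level went from 164 to 198 CPM with NC to 195 to 280 and 533 to 749. Much of it was KDR, at 127 ± 23.0, 120 ± 39.3 and 446 ± 76.6 CPM. Choroid plexus markers rose for 8 of 10 (139 to 276 CPM with NC, 1000 to 2130 with sh1, 4390 to 9140 with sh4), and roof plate and hem markers for 5 of 10, with 1 lower (37.4 to 109 CPM, 333 to 607 and 212 to 298). Epithelium markers rose or fell with both labels for 0 of 10, and with sh4 alone 7 rose (931 to 1050 CPM, 569 to 788 and 2230 to 2990). The shares over all tested genes were 10.2% higher and 6.18% lower with both labels, and 20% higher with sh4. Of 9 tested pluripotency markers all 9 fell, from 952 to 1430 CPM with NC to 125 to 134 and 126 to 171. The part of these cell types in the HEY1, HEYL and JAG1 values was not tested. Mitochondrial transcripts took 3.07 to 3.50% of the counts with NC, 3.14 to 3.29% with sh1 and 5.05 to 6.02% with sh4, and the 10 most abundant genes 5.38 to 5.81%, 6.73 to 7.41% and 11.8 to 14.4%.

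The other genes of the pathway in the organoids were read from lists drawn up with earlier results of these data known. Of 3 other receptors 0 were called with both labels: NOTCH2 was 149 ± 13.4 CPM with NC, 252 ± 18.9 with sh1 and 212 ± 23.5 with sh4, and NOTCH3 155 ± 2.39, 158 ± 12.7 and 80.0 ± 13.4 CPM (SD, n = 3). RBPJ, the DNA-binding partner, was 224 ± 19.7, 152 ± 4.40 and 125 ± 5.72 CPM, log2 fold changes of -0.56 and -0.84 that stayed under the fold threshold. Of 8 genes for Notch cleavage 0 were called with both. Of 16 genes of the nuclear complex and its corepressors 2 rose, the coactivator gene MAML2 (1.70 and 1.85) and the corepressor gene TLE2 (1.65 and 1.38), and 0 fell. With 10.2% of all tested genes called higher and 6.18% lower with both labels, these counts are near the share of all genes.

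Over all genes, 10.2% rose and 6.18% fell with both labels, the share to set beside the counts that follow. Of 9 glycosylation and ligand endocytosis genes LFNG, the Fringe glycosyltransferase that tunes ligand choice (-1.45 and -2.67), and NEURL1, a ubiquitin ligase (-1.42 and -1.38), fell with both labels and 0 rose. Of 10 inhibitors and turnover genes DTX1, a Deltex gene, fell from 25.8 ± 2.43 CPM with NC to 5.61 ± 1.44 and 1.76 ± 0.69 (SD, n = 3), and 0 rose. Of 5 further ligands the non-canonical DNER fell (-1.40 and -2.65) and DLK1, a paternally expressed imprinted gene, rose from 380 ± 12.5 to 1750 ± 477 and 5210 ± 823 CPM. DLL4, the endothelial Delta ligand, was 3.67 ± 1.02, 4.75 ± 0.818 and 3.90 ± 1.06 CPM and did not pass.

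Among 6 tested of 7 other HES and HEY genes, HES4, HES3 and HES7 fell with both labels and 0 rose. HES4 went from 38.3 ± 2.24 CPM with NC to 15.6 ± 2.60 and 4.13 ± 0.159 (SD, n = 3). HES3 was 2.94 ± 0.865 CPM with NC and 0.0914 ± 0.0633 with sh1, and no counts were seen with sh4, which allows up to 0.195 CPM per library (3 counts, counting error only). HES7 was low throughout (1.86 ± 0.631, 0.476 ± 0.282 and 0.163 ± 0.150 CPM). NEUROG2, a proneural gene of the kind that HES proteins repress, fell with both labels, from 16.8 ± 2.10 CPM to 2.74 ± 0.465 and 0.220 ± 0.276 CPM. Other genes of the proneural list were mixed: ATOH1 was called higher with sh1 (1.60) and not with sh4 (0.04), OLIG2 (-2.68) and INSM1 (-2.42) were called lower with sh4 and not with sh1 (-1.64 and -1.15), and NEUROG1, NEUROD1 and NEUROD4 were called with neither. Median log2 fold changes of the 6 HES and HEY genes were -1.38 and -2.60.

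**Figure D2:**
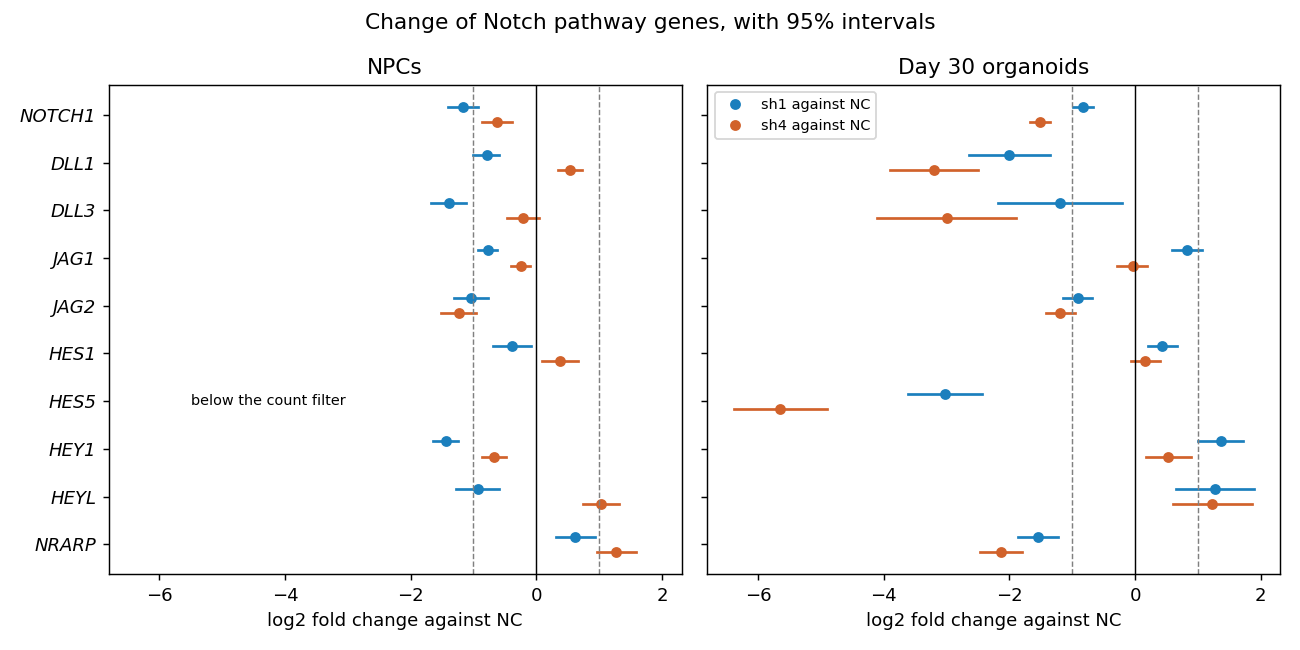
Log2 fold change against NC (points) with its 95% interval (lines) for sh1 and sh4 in NPCs (left) and day 30 organoids (right). Dashed lines mark a log2 fold change of 1 in size, and HES5 was below the count filter in the NPCs. NRARP lies right of 0 in the NPCs and left of 0 in the organoids, and HEY1 the other way round.

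In the NPCs the question was which members followed the knockdown of KDM2A. With sh1 the ligands DLL3 and JAG2, the receptor NOTCH1 and the target HEY1 fell, 4 of 9 tested members, and 0 rose, against 12.1% of 9860 tested genes called lower and 6.31% called higher. With sh4 JAG2 fell and the targets HEYL and NRARP rose, against 11.6% called lower and 6.55% higher. JAG2 was the 1 member called the same way with both hairpins, where 8.48% of all genes fell and 4.62% rose with both. Median log2 fold changes of the 9 were -0.93 (sh1) and -0.21 (sh4), and of all tested genes 0.11 and 0.03. HES5 did not pass the filter on low counts.

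NOTCH1 was 152, 113, 142, 114 and 81.4 CPM in NC 1 to 5, 51.3, 46.5, 56.8, 57.3 and 56.7 CPM in sh1 1 to 5, and 78.7, 76, 71.4, 83.9 and 80.5 CPM in sh4 1 to 5. All sh1 libraries were below all NC libraries, and the sh4 libraries reached into the lowest NC value. NOTCH1 fell with sh1 (log2 fold change -1.16, SE 0.118, adjusted p = 3.36e-08, edgeR), and the sh4 value of -0.63 (SE 0.116, adjusted p = 5.98e-05, edgeR) stayed under the fold threshold.

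DLL1 lay below NC with sh1 and above NC with sh4. It was 17.3, 17.3, 15.5, 14.5 and 18.3 CPM in NC 1 to 5, 8.32, 8.12, 9.39, 9.93 and 11.9 CPM in sh1 1 to 5, and 23.9, 22.3, 26.8, 23.2 and 24.3 CPM in sh4 1 to 5. Group means were 16.6 ± 1.52, 9.54 ± 1.53 and 24.1 ± 1.69 CPM (SD, n = 5). No group overlapped another. The log2 fold changes of -0.79 (SE 0.10) and 0.54 (SE 0.093) had adjusted p = 5.49e-07 and 2.77e-05 in edgeR and neither reached the fold threshold, but sh1 against sh4 passed it at -1.33 (SE 0.097, adjusted p = 2.02e-09, edgeR).

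DLL3 fell with sh1, and the difference between the hairpins passed the test. It was 10.3, 9.89, 7.86, 10.3 and 11.5 CPM in NC 1 to 5, 3.76, 2.8, 3.35, 4.35 and 4.78 CPM in sh1 1 to 5, and 8.46, 7.56, 8.95, 8.34 and 10 CPM in sh4 1 to 5. All sh1 libraries were below the rest, and sh4 overlapped with NC. The log2 fold changes were -1.39 (SE 0.134, adjusted p = 1.67e-08) with sh1, -0.21 (SE 0.122, adjusted p = 0.115) with sh4 and -1.18 (SE 0.135, adjusted p = 1.11e-06) for sh1 against sh4 in edgeR.

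JAG1, on chromosome 20 at 10637684 to 10673999 on the minus strand, had the highest level of the ligands. It was 346 to 460 CPM with NC (405 ± 41.3, SD, n = 5), 211 to 259 with sh1 (237 ± 20.8) and 310 to 377 with sh4 (340 ± 24.6). The sh1 libraries were below all others, and sh4 overlapped with NC. Changes were under the fold threshold with sh1 (-0.77, SE 0.072) and sh4 (-0.25, SE 0.071).

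JAG2 was 5.95, 6.02, 5.31, 5.96 and 4.8 CPM in NC 1 to 5, 2.62, 2.2, 3.52, 2.76 and 2.57 CPM in sh1 1 to 5, and 2.58, 2.79, 2.38, 1.95 and 2.21 CPM in sh4 1 to 5. Both knockdown groups lay below NC and overlapped with each other. It fell with sh1 (-1.04, SE 0.131, adjusted p = 6.34e-07) and with sh4 (-1.23, SE 0.133, adjusted p = 7.02e-08) in edgeR, and the sh1 call was lost without sh1 replicate 2 (-0.96).

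The targets did not move together. HEY1 was 10.5, 10.9, 10.8, 10.7 and 10.4 CPM in NC 1 to 5, 4.29, 3.62, 4.47, 3.84 and 3.44 CPM in sh1 1 to 5, and 6.71, 6.11, 6.0, 7.29 and 7.45 CPM in sh4 1 to 5. The groups did not overlap, with NC highest and sh1 lowest. It fell with sh1 (-1.44, SE 0.097, adjusted p = 1.06e-10, edgeR), and the sh4 value of -0.67 (SE 0.09) was under the fold threshold. HES1 was 11.2 to 21.1 CPM with NC, 9.44 to 12.1 with sh1 and 15.2 to 21.8 with sh4. NC overlapped with both, and the log2 fold changes were -0.39 (SE 0.145) and 0.38 (SE 0.139). HES1 with sh1 lay below sh4 in every library (-0.76, SE 0.142, adjusted p = 0.000357, edgeR).

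HEYL was 4.85, 4.89, 4.44, 5.08 and 5.69 CPM in NC 1 to 5, 2.55, 3.24, 1.68, 2.2 and 3.39 CPM in sh1 1 to 5, and 10.8, 9.94, 10.9, 11.5 and 8.04 CPM in sh4 1 to 5. It was lower than NC in all sh1 libraries and higher in all sh4 libraries. It rose with sh4 (1.03, SE 0.138, adjusted p = 1.28e-06, edgeR), a call lost without NC replicate 3 (just under 1), without sh4 replicate 4 (0.99) and with library size alone (0.89). The sh1 value was -0.93 (SE 0.161) and passed the fold threshold without sh1 replicate 2 (-1.02), without sh1 replicate 5 (-1.05) and with library size alone (-1.07). Between the hairpins it had the largest difference of the 9 members, -1.96 for sh1 against sh4 (SE 0.15, adjusted p = 3.76e-09, edgeR).

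NRARP was 7.46, 11.2, 8.44, 9.89 and 12.4 CPM in NC 1 to 5, 11.5, 13.2, 13.4, 17 and 20.9 CPM in sh1 1 to 5, and 21.2, 23.4, 22.8, 24 and 28.1 CPM in sh4 1 to 5. Each sh4 library was above all others, and sh1 overlapped with NC. It rose with sh4 (1.27, SE 0.149, adjusted p = 2.12e-07, edgeR), and the sh1 value was 0.62 (SE 0.152, adjusted p = 0.000823, edgeR), under the fold threshold. HES5 was near the limit of detection, with 9, 6, 11, 11 and 19 counts in NC 1 to 5, 0, 1, 2, 4 and 3 in sh1 1 to 5, and 6, 0, 0, 1 and 5 in sh4 1 to 5. All sh1 libraries were below NC, and sh4 overlapped with NC at its lowest library. The NC level was 0.309 to 0.991 CPM. A count of 0 allows up to 0.201 CPM per sh1 library and 0.165 CPM per sh4 library (3 counts, counting error only). The difference from NC gave p = 0.00794 with sh1 and 0.0159 with sh4 in two-sided exact permutation tests, whose smallest possible value is 0.00794. Without the filter on low counts edgeR gave adjusted p = 0.000833 and 0.00124. HES5 belongs to the selected genes of this table, nearly all of which differ between sh1 and NC. The sh1 p-values are therefore no separate support, and those with sh4 rest on the same NC libraries.

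**Figure D3:**
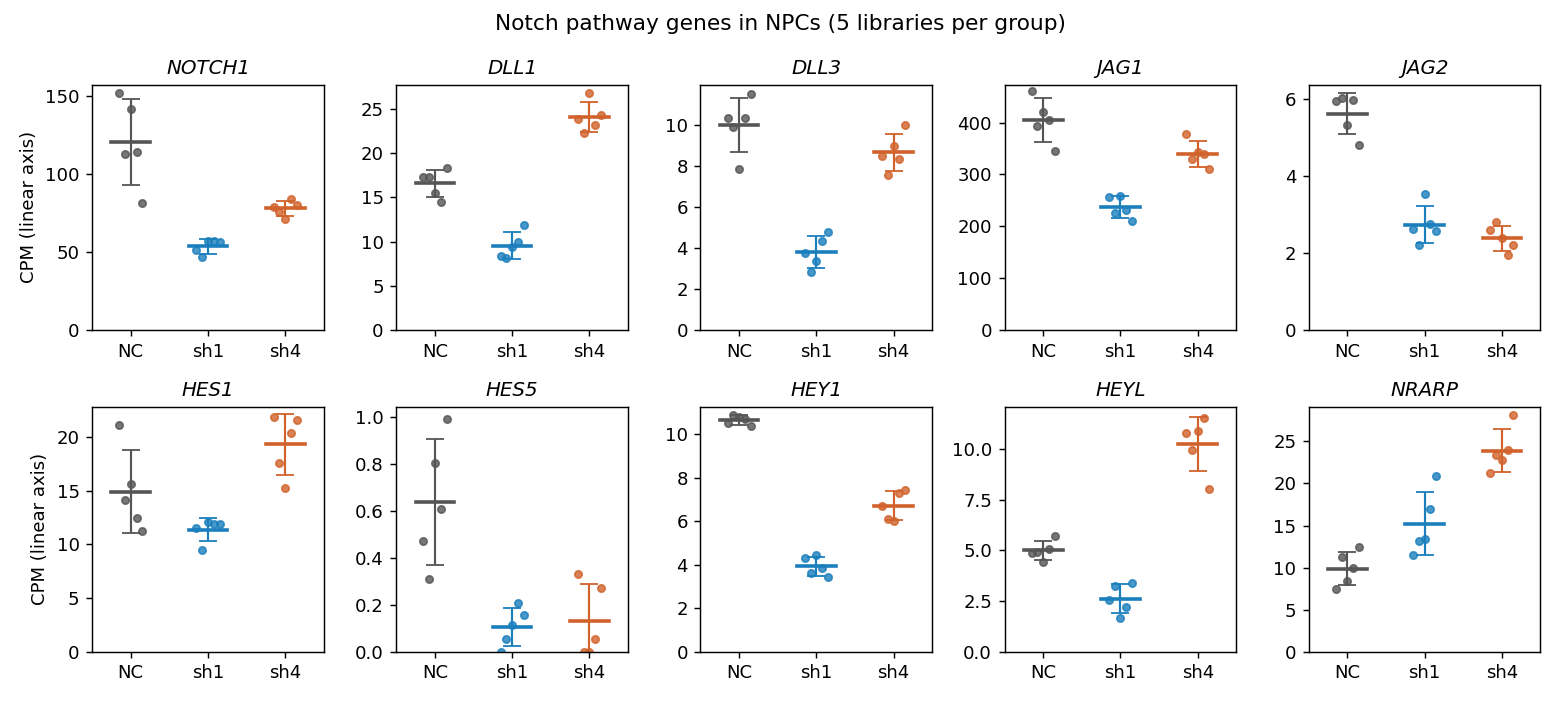
Level in CPM (linear axes from 0, a scale per gene) of the 10 genes in each NPC library with NC, sh1 or sh4. Points are libraries (n = 5), the horizontal line is the mean and the bar its SD. DLL1 and HEYL lie below NC with sh1 and above NC with sh4, and NRARP is highest with sh4.

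Set against each other directly in the NPCs, sh1 was below sh4 for 8 of 9 members, with an adjusted p under 0.05 for all 8, and JAG2 was the exception (0.20, 95% interval -0.11 to 0.50). Calls past the fold threshold were DLL1, DLL3 and HEYL, 3 of 9 lower with sh1 and 0 higher, against 2.42% of all tested genes called lower and 2.18% higher. An adjusted p under 0.05 in the lower direction was found for 14.5% of all genes. KDM2A itself differed by -0.05 (95% interval -0.16 to 0.07) between the hairpins.

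In the same NPC libraries, 4 of 9 tested radial glia markers rose with both hairpins and 0 fell, with a summed level of 3160 to 3360 CPM with NC, 2970 to 3190 with sh1 and 3830 to 4220 with sh4. The share of all tested genes called with both hairpins was 4.62% higher and 8.48% lower, to be set beside this and the following marker counts. PAX6 differed between the hairpins, at 28.5 ± 1.76 CPM with sh1 and 3.17 ± 0.313 with sh4 (SD, n = 5). Neuron markers were called with both for 0 of 7 (2580 to 3140 CPM with NC, 2440 to 2740 with sh1, 2930 to 3120 with sh4). Much of this sum was MAP2, at 1840 ± 193, 2030 ± 140 and 2180 ± 83.9 CPM. Roof plate and hem markers had 1 higher and 2 lower of 7, with 62.7 to 71.3 CPM with NC, 87.7 to 106 with sh1 and 35.6 to 38.0 with sh4. Pluripotency markers had 5 higher and 1 lower of 10 (1210 to 1360 CPM with NC, 1990 to 2150 with sh1, 1930 to 2130 with sh4). The 1 lower was POU5F1 (-1.83 and -1.39), and NANOG was among the 5 higher (2.87 and 4.46). Endothelium markers had 1 higher and 2 lower of 8 (60.8 to 72.1 CPM with NC, 136 to 158 and 108 to 164). The 1 higher, KDR, carried much of the larger sums, at 9.39 ± 1.85, 72.6 ± 12.7 and 90.2 ± 22.8 CPM. VWF and CDH5 were the 2 lower. Mesenchyme and mural cell markers had 2 higher and 0 lower of 10 (7540 to 8290 CPM, 6130 to 7500 and 7140 to 8120). Most of that sum was COL3A1, at 6160 ± 284, 4230 ± 396 and 4510 ± 352 CPM. Choroid plexus markers had 1 higher and 0 lower of 7, with TTR at no more than 3 counts in any library (summed 168 to 177 CPM, 128 to 132 and 105 to 124), and epithelium markers 0 higher and 3 lower of 9 (257 to 281 CPM, 290 to 332 and 272 to 333). The part of these shifts in the Notch gene values was not tested.

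Of the pathway lists in the NPCs, only listed genes could be read. NOTCH2, the 1 other receptor tested, was 541 ± 61.9 CPM with NC, 434 ± 16.7 with sh1 and 381 ± 9.52 with sh4 (SD, n = 5), under the fold threshold with both. Of 4 further ligands DLK1 fell from 160 ± 9.51 CPM to 19.2 ± 2.75 and 32.5 ± 3.76, the opposite direction to the organoids, and the contactin gene CNTN1 fell by 1.90 and 1.43 on the log2 scale. Of 5 inhibitors and turnover genes DTX3, a Deltex gene, fell from 62.0 ± 2.90 to 15.7 ± 1.36 and 5.81 ± 0.449 CPM. Calls with both hairpins were 0 of 7 for glycosylation and ligand endocytosis, 0 of 5 for cleavage, 0 of 11 for the nuclear complex and corepressors and 0 of 2 for the other HES and HEY genes. Of all tested genes 4.62% were called higher and 8.48% lower with both, so 0 calls in a list this small does not set it apart. HES4, of the other HES and HEY genes, fell with sh1, from 35.0 ± 4.70 CPM with NC to 11.3 ± 4.39 (-1.63). With sh4 HES4 was 17.8 ± 4.21 CPM (-0.98), just under the fold threshold. HES6 was called with neither (-0.57 and 0.24). LFNG was 17.4 ± 0.584 CPM with NC, 22.0 ± 2.46 with sh1 and 33.3 ± 2.44 with sh4. Of 6 proneural genes ATOH1, a hindbrain proneural factor (5.35 ± 1.17, 0.526 ± 0.0803 and 0.613 ± 0.162 CPM), and NEUROG1 (1.96 ± 0.162, 0.313 ± 0.162 and 0.563 ± 0.0788 CPM) fell with both hairpins, and 0 rose.

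Per kilobase of exon (union of exons in GENCODE release 29), the order of the members differed between the systems. In NC of the NPCs JAG1 was highest at 43.5 ± 4.44 CPM per kilobase (SD, n = 5), above NOTCH1 (11.6 ± 2.69), HES1 (7.21 ± 1.86), NRARP (5.58 ± 1.13), DLL1 (5.14 ± 0.47), DLL3 (3.81 ± 0.508), HEY1 (3.30 ± 0.0591), HEYL (1.36 ± 0.124), JAG2 (0.877 ± 0.084) and HES5 (0.487 ± 0.206). The libraries of NOTCH1 and HES1, of HES1 and NRARP, of NRARP and DLL1, of DLL3 and HEY1 and of JAG2 and HES5 overlapped, and these neighbours are not separated by their spread. In NC of the organoids HES5 (28.3 ± 6.20, n = 3), DLL1 (27.6 ± 0.683), NOTCH1 (26.2 ± 0.906) and NRARP (22.8 ± 2.06) led. HES5 overlapped with the 3 below it, and DLL1 with NOTCH1. They were followed by HES1 (10.7 ± 1.19), DLL3 (9.93 ± 0.473), HEY1 (8.52 ± 0.576), JAG1 (6.23 ± 0.244), JAG2 (4.54 ± 0.00981) and HEYL (1.87 ± 0.365), among which HES1 and DLL3 overlapped. In the organoids labelled sh1 and sh4 HEY1 had the highest mean (21.8 ± 3.07 and 12.3 ± 2.59), with sh4 overlapping with HES1 (11.9 ± 0.248) and NOTCH1 (9.13 ± 0.582). HES5 stood ninth and last (3.49 ± 0.442 and 0.551 ± 0.358).

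In the NPCs JAG1 made up 81.5 ± 2.51% of the summed level per kilobase of the 4 ligands with NC (SD, n = 5), 84.0 ± 2.95% with sh1 and 76.6 ± 1.87% with sh4. In the organoids DLL1 made up 57.2 ± 1.08% with NC (SD, n = 3), 27.5 ± 9.57% with sh1 and 23.9 ± 3.25% with sh4, while JAG1 made up 12.9 ± 0.63%, 45.1 ± 7.36% and 50.4 ± 7.33%. The JAG1 share was 12.4 to 13.6% in the NC libraries and 36.6 to 50.2% and 41.9 to 54.7% in those labelled sh1 and sh4. With sh4 the JAG1 level itself was 6.04 ± 0.751 CPM per kilobase, against 6.23 ± 0.244 with NC, while DLL1 stood at 3.0 against 27.6 and DLL3 at 1.23 against 9.93. These shares are descriptions and were not tested.

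**Figure D4:**
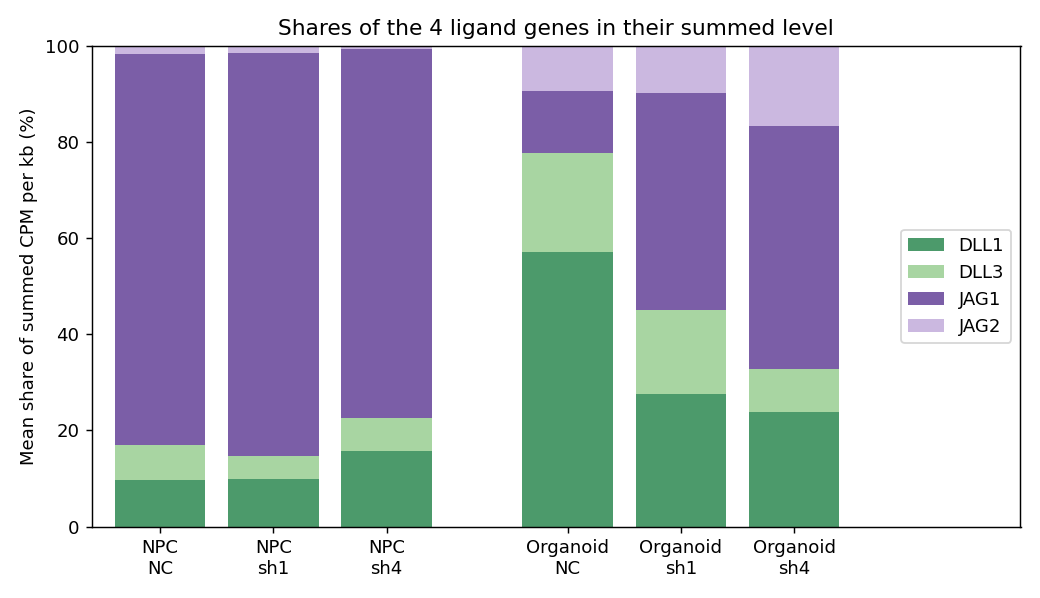
Mean share (%) of DLL1, DLL3, JAG1 and JAG2 in the summed level of these 4 ligands, in CPM per kilobase of exon, per group (n = 5 in NPCs, n = 3 in organoids). JAG1 fills most of each NPC bar, and the DLL1 part of the organoid bars shrinks from 57.2% with NC to 27.5% and 23.9%.

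Whether the change against NC differed between the systems was tested as an interaction in 1 fit of both systems. It covered 10028 genes shared by the tables, of which 73.7% (sh1) and 77.7% (sh4) had an adjusted p under 0.05. These shares rest on the selected genes of the NPC table. KDM2A, the target, differed too (-1.12 with sh1 and -0.98 with sh4, adjusted p = 1.49e-10 and 7.12e-10, edgeR). The systems are therefore not compared at an equal measured loss of KDM2A. With both labels NRARP (difference of log2 fold changes, NPCs minus organoids, 2.20 with sh1 and 3.40 with sh4), DLL1 (1.24 and 3.73) and HEY1 (-2.77 and -1.21) differed, each with an adjusted p of at most 0.000195 (DLL1 with sh1, edgeR). The NRARP log2 fold changes were above 0 in NPCs and below 0 in organoids, and those of HEY1 the reverse. Under the fold threshold were NRARP with sh1 in NPCs (0.62) and HEY1 with sh4 in NPCs (-0.67) and organoids (0.53). JAG2 differed with neither (-0.09, 95% interval -0.45 to 0.26, and -0.05, -0.39 to 0.30).

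By the likeness rule, the organoid genes most like DLL1, JAG1, HES1 and HES5 were found by Pearson correlation of log2 CPM over the 9 libraries among 11914 genes. The libraries share their groups, so these values mostly describe the steps between labels, and they are given with no test. For DLL1 they were SLAIN1 (r = 0.995), RPS6KA2 (0.995) and CASTOR3P (0.991), for JAG1 FMNL3 (0.988), PCAT7 (0.984) and TRH (0.984), for HES1 VPS33A (0.957), FAHD2B (0.945) and SCCPDH (0.943), and for HES5 ZNF219 (0.997), GKAP1 (0.997) and RTN4R (0.996).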

How the data were processed

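Poly(A) RNA was sequenced from 15 NPC and 9 organoid libraries. The authors deposited 1 table of unscaled expected counts per system. STAR and featureCounts were run with GRCh38.p13 per the submitters' processing notes, and the design text names DESeq2 as the authors' test, with versions and settings not given in the sources used here, strand use included. Of the deposited values 82.4% (NPC) and 91.0% (organoids) were whole, and all were rounded. Organoid identifiers were matched to symbols through the gene table (42047 matched). Genes were filtered with filterByExpr (minimum count 10), leaving 9860 and 19704, and scaled by TMM. The 3 groups of a system were fitted together with edgeR 4.0.16 in R 4.3.3, and p-values adjusted by Benjamini-Hochberg. The test was tried on simulated data. No replicate pair agreed within sampling noise (lowest chi-square per degree of freedom 2.60).

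The members and lists were chosen with earlier results of these data known. Named were all 10 members and, of 8 pathway lists, those that sh1 and sh4 both called in 1 direction, at most 4 per list and system. Other genes named (NOTCH2, NOTCH3, RBPJ, DLL4, LFNG, HES4 and HES6 in the NPCs, other proneural genes in the organoids, and cell type markers) were chosen after their values were seen. Alternatives were library size alone, DESeq2 1.42.0, no filter, the compared groups alone, a replicate block and leaving out each library. The count over the proneural list in the organoids is not reported here. Coordinates are from GENCODE release 29 on GRCh38.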

Additional observations from a re-analysis of the deposited data

Results flagged for a closer look

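HES1 in the NPCs had a library far from the others of its group: sh1 replicate 2 stood at 9.44 CPM, below the other sh1 libraries (11.5 to 12.1 CPM). Of 30 groups of 5 examined this was the 1 found, and chance gives about 1 in 20.

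Changes against NC differed between the systems by edgeR's interaction test for these members, as differences of log2 fold changes (NPCs minus organoids). They are 6 of 10 members with each label, where 73.7% (sh1) and 77.7% (sh4) of all genes passed the same test, so the members passed no more often than other genes. With sh1 they were JAG1 (-1.57), HEY1 (-2.77), HEYL (-2.18), DLL1 (1.24), HES1 (-0.79) and NRARP (2.20). With sh4 they were DLL3 (2.78), HEY1 (-1.21), DLL1 (3.73), HES5 (3.42), NRARP (3.40) and NOTCH1 (0.89). KDM2A itself passed this test with both labels (-1.12 with sh1 and -0.98 with sh4). The HES5 value rests on 0 to 19 counts per NPC library, and no cause was tested.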

How the results depend on the processing

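Of 1000 member values under the alternatives, 972 kept their direction and side of the threshold, 17 lost a call, 6 gained one and 5 changed sign, none of these called. With library size alone the sign changed for HES1 in organoids with sh4 (-0.12) and JAG2 in the sh4 system difference (0.04). Leaving out 1 library gave -0.10 to 0.06 for JAG1 in organoids with sh4 (0.06 without sh4 replicate 1) and -0.20 to 0.45 for HEYL, sh1 against sh4, in organoids (-0.03 without sh4 replicate 1, -0.20 without sh4 replicate 3). With library size alone 5 members were called between organoids sh1 and sh4, against 3. There the median log2 fold change of all genes was -0.279 (organoids sh4), 0.259 (organoids sh1 against sh4), -0.027 (NPCs sh1) and -0.113 (NPCs sh4), and for NPCs sh1 it was -0.144 with DESeq2 and -0.130 without the filter. The cause was not tested. In the organoids the replicate numbers did not pair the libraries. Same-numbered libraries correlated at -0.27 to 0.02, over 0.1 in 0 of 9 pairs, and 0 of 9 libraries matched best with their own number. In the NPCs a partial pairing is not excluded. There the correlations were -0.17 to 0.54, over 0.1 in 10 of 15 pairs, and 4 of 15 libraries matched best with their own number. The main fits used no pairing. With the replicate block the DLL3 call in organoids with sh1 was lost (-1.2, adjusted p = 0.057, edgeR), and no other call of a member changed. Depth limits HES5 in the NPCs.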
